A study of Homo sapiens with 20 samples.

Results

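The 44 collagen genes were the protein-coding genes whose symbol is COL, a number, A and a number, and they were chosen by that name alone from the 19986 protein-coding genes among the 58870 genes measured. They comprised 11 fibrillar collagens, 8 basement membrane collagens and 25 other collagens, and the last group held 10 collagens that decorate or link fibrils (FACIT), 6 beaded filament, 4 transmembrane and 3 short chain collagens, COL7A1 and COL26A1. RNA-seq was performed in A375 and 1205Lu cells, both human melanoma cell lines, treated with non-targeting siRNAs (si-NT) or with siRNAs against FOSL1 (si-FOSL1), with 3 samples in each of 4 groups. FOSL1 encodes FRA1, a partner of JUN proteins in the transcription factor AP-1. Cut&Run, which maps where a protein sits on chromatin, was performed in the same lines, with no siRNA named in the labels, using an antibody against FRA1 (3 samples per line) or IgG as the background control (1 sample per line). The comparisons asked which collagen genes changed when FRA1 was silenced, whether the lines differed, and where FRA1 lay at these genes.

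Collagens are the main structural proteins of the extracellular matrix. Each molecule is built from chains that wind around each other along repeats with glycine at regular intervals, and the chains of a molecule can come from the same gene or from different genes. Fibrillar collagens such as types I, III and V assemble into cables outside the cell, type IV collagen forms the sheet of the basement membrane, and most of the remaining types sit on fibrils, span the membrane or anchor other networks. The protein is hydroxylated and folded in the endoplasmic reticulum, carried out in large carriers, trimmed and then crosslinked. In skin, the basement membrane under the epidermis lies beside the melanocytes from which melanomas arise, and dermal fibroblasts make most of the type I and III collagen.

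FOSL1 mRNA was at 26.1 ± 0.202 CPM (SD, n = 3) after silencing against 422 ± 8.43 CPM with si-NT in A375 cells, and at 67.2 ± 3.12 CPM against 481 ± 8.02 CPM in 1205Lu cells. CPM is the count of a gene relative to the total of its library, as edgeR's cpm function gives it, here with library sizes scaled by the TMM method within each line. The RNA-seq libraries held 20573412 to 32518903 expected counts, and the common coefficient of variation between samples of a group was 4.51% in A375 and 4.20% in 1205Lu cells. Of the 8 melanocyte lineage markers checked, SOX10 was at 44.7 ± 0.493 CPM in A375 and 907 ± 14.2 CPM in 1205Lu si-NT samples, S100B at 1.01 ± 0.147 and 424 ± 8.29 CPM, and MITF at 53.0 ± 2.35 and 3.52 ± 0.236 CPM, while the pigment genes PMEL, MLANA, TYR, DCT and TYRP1 were all below 1 CPM on average in the si-NT samples of both lines. Upon silencing SOX10 fell in both lines (log2 fold changes of -0.44 and -0.24) and MITF rose in A375 (0.29). Labels do not say that the samples of a group came from separate cultures, so p-values cover only the spread between these samples.

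The collagen genes moved in both directions, and their sum differed little between treatments. The 44 genes summed to 1237 ± 5.85 CPM in A375 si-NT and 1189 ± 12.9 CPM in A375 si-FOSL1 samples, and to 1441 ± 12.1 CPM and 1503.5 ± 13.5 CPM in the 1205Lu groups, and the sums did not overlap in either line. The 4 genes with the most counts made up 68.5% of the sum in A375 and 67.5% in 1205Lu si-NT samples. After the filter on low counts, 27 of the 44 genes were tested in A375 and 29 in 1205Lu cells, 22 of them in both lines, and 10 in neither. Calls rest on edgeR's quasi-likelihood test over all genes, with a limit of 0.05 on the adjusted p.

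In A375 cells, 9 of the 27 collagen genes tested were higher and 8 were lower upon FOSL1 silencing, beside 29.9% and 27.8% of all protein-coding genes tested. The median log2 fold change of the 27 was -0.00, and that of all 13598 protein-coding genes tested was 0.01. With an absolute log2 fold change over 1 also required, 3 collagen genes were higher (COL3A1, COL5A1 and COL19A1) and 2 were lower (COL4A3 and COL8A1), beside 2.78% and 2.51% of all protein-coding genes. In 1205Lu cells, 9 of 29 were higher and 7 were lower, beside 24.0% and 23.0% of all. Past the same fold limit, COL9A2 was higher and COL8A1 was lower, beside 1.11% and 1.86%. The shares of collagen genes called by p alone were near the shares of all genes in both lines, and past the fold limit the collagen counts are too few to read a share from.

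**Figure D1:**
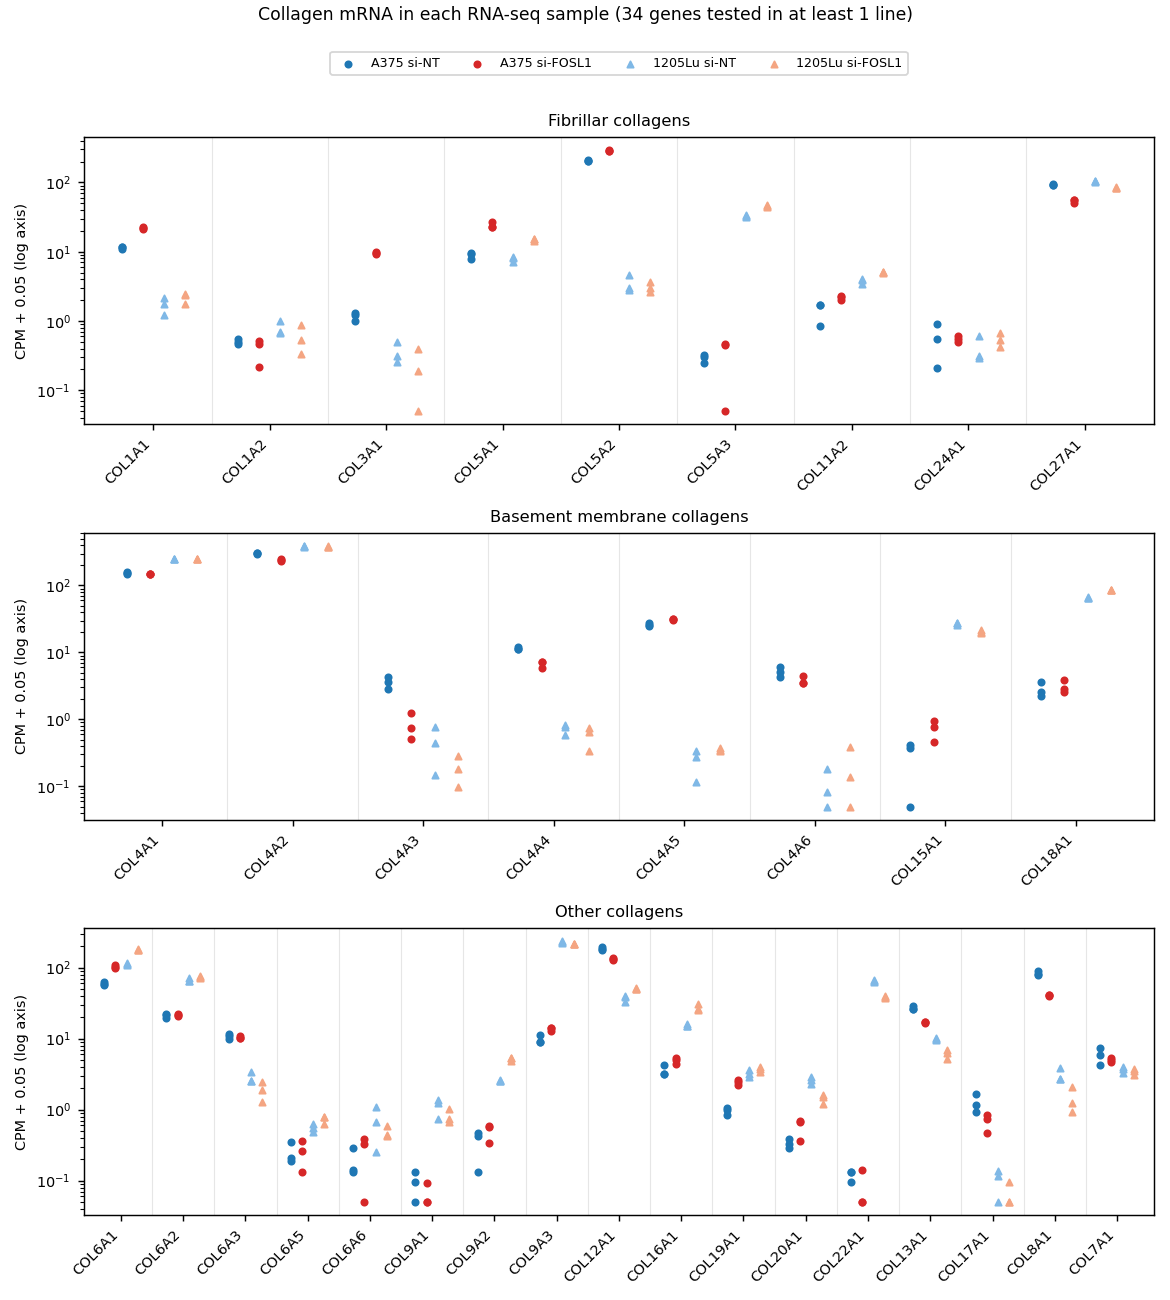
CPM (plus 0.05, log axis) of the 34 collagen genes tested in at least 1 line, with a point for each of the 3 samples of A375 (circles) and 1205Lu (triangles) cells with si-NT (blue) or si-FOSL1 (red and orange). The 3 A375 si-FOSL1 points of COL3A1 sit between 9.19 and 9.89 CPM, above its si-NT points, and the lines differ more than the treatments for COL5A2, COL5A3, COL4A5 and COL22A1.

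**Figure D2:**
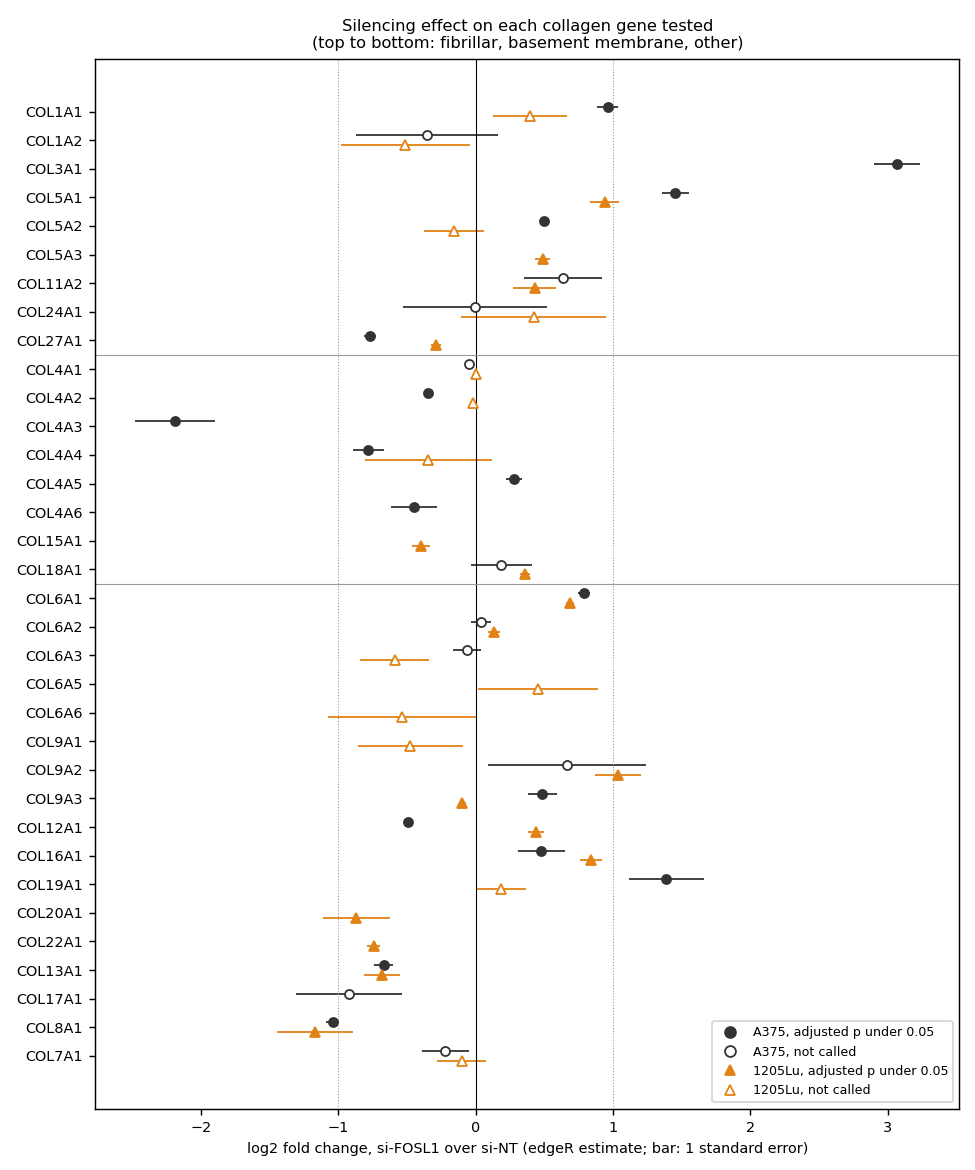
Log2 fold change of si-FOSL1 over si-NT (horizontal axis; bar, 1 standard error) for each collagen gene tested, in A375 (circles) and 1205Lu (triangles) cells, filled where the adjusted p was under 0.05. COL3A1 at 3.07 and COL4A3 at -2.19, both in A375 cells, lie farthest from 0, and COL12A1 lies below 0 in A375 and above 0 in 1205Lu cells.

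The fibrillar collagens held the largest increase. In A375 cells 8 of the 11 were tested, of which COL1A1, COL3A1, COL5A1 and COL5A2 were higher, COL27A1 was lower and 3 were not called. The median log2 fold change was 0.57. Of all protein-coding genes tested, 29.9% were higher and 27.8% lower, and 8 genes are too few to read a share from. COL3A1, which encodes the chain of type III collagen in pliable tissues and wounds (chr2:188974373-189012746, GRCh38), measured 0.96, 1.17 and 1.27 CPM in the si-NT samples and 9.19, 9.67 and 9.89 CPM in the si-FOSL1 samples of A375. The groups were far apart, by 8.39-fold (log2 fold change 3.07 ± 0.17 standard error, adjusted p = 1.6e-13). In 1205Lu cells COL3A1 did not pass the filter and had no more than 0.44 CPM in any sample.

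COL5A1 and COL5A2 encode chains of type V collagen, which sits inside type I fibrils and limits their width. COL5A1 measured 7.85, 9.09 and 9.49 CPM in si-NT and 27.2, 22.5 and 22.7 CPM in si-FOSL1 samples of A375 (log2 fold change 1.45 ± 0.10, adjusted p = 5.9e-12), and 7.07, 8.08 and 8.39 CPM against 15.3, 15.4 and 14.2 CPM in 1205Lu (0.94 ± 0.11, adjusted p = 3.8e-07). The groups did not overlap in either line. COL5A2, the neighbour of COL3A1 on chromosome 2, was among the most abundant collagen mRNAs of A375 cells, with 208, 201 and 202 CPM in si-NT and 289, 291 and 285 CPM in si-FOSL1 samples (0.50 ± 0.02, adjusted p = 1.6e-14). In 1205Lu cells it had 2.78 to 4.55 CPM in si-NT samples, the si-FOSL1 samples overlapped them, and the log2 fold change of -0.16 ± 0.22 was not called. COL3A1 and COL5A2 lie 19.2 kb apart in opposite orientation (COL5A2, chr2:189031898-189225312) and rose together in A375 cells, though by 3.07 and 0.50 on the log2 scale. The third type V chain, COL5A3, was measured mainly in 1205Lu cells, where it went from 31.6, 32.3 and 33.9 CPM to 47.3, 43.6 and 46.4 CPM (0.49 ± 0.05, adjusted p = 2.3e-07).

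COL1A1 encodes the main chain of type I collagen, the principal fibril of skin and bone. It rose in A375 cells from 11.5, 10.9 and 11.5 CPM to 21.3, 22.0 and 22.9 CPM (log2 fold change 0.96 ± 0.08, adjusted p = 3.9e-10). In 1205Lu cells it had 1.16 to 2.08 CPM in si-NT and 1.73 to 2.43 CPM in si-FOSL1 samples, which overlapped (0.40 ± 0.27, adjusted p = 0.27). COL1A2, whose chain joins COL1A1 in ordinary type I collagen, stayed below 1 CPM in all 12 samples and was not called in A375 (-0.35 ± 0.52) or 1205Lu cells (-0.51 ± 0.47). COL11A2 of cartilage fibrils went from 3.80, 3.98 and 3.38 CPM to 5.11, 5.06 and 4.86 CPM in 1205Lu cells (0.43 ± 0.16, adjusted p = 0.035) and was not called in A375 (0.64 ± 0.29, adjusted p = 0.068). In 1205Lu cells, without si-NT replicate 1 or 3, or any of the si-FOSL1 replicates, the call was lost, with adjusted p-values of 0.057 to 0.11.

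COL27A1 was the only fibrillar collagen called lower, in both lines. It encodes a thin-fibril chain best known from cartilage. Its values were 91.7, 93.8 and 92.3 CPM in si-NT against 56.2, 55.5 and 51.1 CPM in si-FOSL1 samples of A375 (log2 fold change -0.77 ± 0.04, adjusted p = 1.5e-13), and 106, 105 and 101 CPM against 84.1, 84.2 and 87.0 CPM in 1205Lu (-0.29 ± 0.04, adjusted p = 1.1e-06). The groups were apart in both lines. Among the other fibrillar genes, COL24A1 was not called in A375 (-0.00 ± 0.53) or 1205Lu cells (0.42 ± 0.53), and COL2A1 and COL11A1 stayed below the filter in both.

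Markers of fibroblasts, the usual makers of fibrillar collagen, were set beside these values. The 8 markers summed to 31.1 to 35.6 CPM in A375 si-NT and 61.1 to 63.5 CPM in A375 si-FOSL1 samples, with PDGFRB, POSTN, PDGFRA and LUM called higher (log2 fold changes of 0.80, 1.21, 1.12 and 1.64) and FAP and TCF21 not called. DCN and THY1 were below the filter in A375 cells, at 0.241 and 0.169 CPM on average in si-NT and 0.624 and 0.156 CPM in si-FOSL1 samples. In 1205Lu cells the sum was 197 to 203 CPM against 191 to 200 CPM, and nearly all of it was PDGFRA (191 ± 2.95 CPM in si-NT samples); PDGFRB was called higher there too (6.48 and 14.6 CPM). Whether the marker levels have a part in the fibrillar result was not tested, and in bulk RNA a change in the number of cells of a type and a change in RNA per cell cannot be told apart.

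Among the basement membrane collagens, 7 of 8 were tested in A375 cells, where COL4A2, COL4A3, COL4A4 and COL4A6 were lower and COL4A5 was higher. Of all protein-coding genes tested, 27.8% were lower and 29.9% higher, and 7 genes are too few to read a share from. COL4A1 and COL4A2 encode the chains of the common type IV network and were among the 4 highest collagens per kb of exon in both lines. COL4A1 had 154, 148 and 159 CPM in si-NT and 150, 148 and 148 CPM in si-FOSL1 samples of A375, which overlapped (log2 fold change -0.05 ± 0.03, adjusted p = 0.19). COL4A2 went from 310, 300.1 and 300.5 CPM to 235, 246 and 236 CPM, without overlap (-0.35 ± 0.02, adjusted p = 2.7e-11). The starts of these genes face away from each other on chromosome 13 (COL4A1, chr13:110148963-110307157, minus strand; COL4A2, chr13:110305812-110513209, plus strand) and their annotated spans overlap at the starts. COL4A2 moved in A375 cells and COL4A1 was not called there. Per kb of exon, the COL4A1 level was 0.666 ± 0.0252 of the COL4A2 level in si-NT and 0.818 ± 0.0244 in si-FOSL1 samples.

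In 1205Lu cells neither gene of the pair was called. COL4A1 had 250.1, 247 and 247 CPM in si-NT and 247, 252 and 247 CPM in si-FOSL1 samples (log2 fold change 0.0044 ± 0.02), and COL4A2 had 379.7, 387 and 389.5 CPM and 370.5, 391 and 379 CPM (-0.02 ± 0.02). The groups of both genes overlapped in this line.

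COL4A3, COL4A4, COL4A5 and COL4A6 encode chains of the specialised type IV networks of kidney, lung and some other basement membranes, and they were chiefly found in A375 cells. In 1205Lu cells only COL4A4 passed the filter, at under 1 CPM, and it was not called (-0.34 ± 0.46). COL4A3 fell from 2.80, 3.62 and 4.22 CPM to 0.68, 0.46 and 1.19 CPM (log2 fold change -2.19 ± 0.29, adjusted p = 1.0e-06), the largest decrease of any collagen gene tested. Its head-to-head neighbour COL4A4 fell from 11.2, 11.3 and 11.8 CPM to 5.84, 7.05 and 7.22 CPM (-0.78 ± 0.11, adjusted p = 3.5e-06). The annotated starts of this pair lie 0.171 kb apart (COL4A3, chr2:227164624-227314792; COL4A4, chr2:227002714-227164453), and both genes were lower in each si-FOSL1 sample. COL4A5 and COL4A6, which share a start region of 0.341 kb on chromosome X, went different ways. COL4A5 rose from 27.4, 25.5 and 24.5 CPM to 30.9, 31.3 and 31.7 CPM (0.28 ± 0.06, adjusted p = 0.00046), while COL4A6 had 4.27, 6.08 and 4.98 CPM against 3.51, 4.35 and 3.45 CPM (-0.45 ± 0.17, adjusted p = 0.031). The COL4A6 groups overlapped, and its call was lost without si-NT replicate 2 (adjusted p = 0.20) or 3 (0.052) or si-FOSL1 replicate 1 (0.11) or 3 (0.10).

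COL15A1 and COL18A1 are basement membrane collagens that carry sugar chains, and their ends can be cut off as restin and endostatin. They were higher in 1205Lu than in A375 cells, and they moved in opposite directions in 1205Lu. COL18A1 rose from 66.1, 66.0 and 68.0 CPM to 84.9, 86.6 and 85.0 CPM (log2 fold change 0.36 ± 0.04, adjusted p = 1.2e-07), whereas COL15A1 fell from 27.6, 26.0 and 27.9 CPM to 19.8, 21.6 and 20.5 CPM (-0.40 ± 0.07, adjusted p = 5.0e-05). The groups did not overlap for either gene. In A375 cells COL18A1 was not called (0.19 ± 0.22) and COL15A1 was below the filter. COL18A1 shares 1563 exon bases with SLC19A1 on the other strand, which measured 21.3 CPM in si-NT and 18.4 CPM in si-FOSL1 samples of 1205Lu. In A375 cells SLC19A1 measured 24.1 and 17.4 CPM in these groups. The libraries were strand-specific, and whether counting used the strand is not given in the sources used here.

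Type VI collagen, the beaded filament around cells, is built from the COL6A1 and COL6A2 chains and another, most often COL6A3. COL6A1 was higher upon silencing in both lines. It measured 59.6, 62.3 and 57.1 CPM in si-NT and 108, 102 and 98.6 CPM in si-FOSL1 samples of A375 (log2 fold change 0.79 ± 0.04, adjusted p = 1.2e-13), and 112, 108 and 115 CPM against 178, 181 and 180 CPM in 1205Lu (0.69 ± 0.03, adjusted p = 2.8e-13). COL6A2, which lies 93.1 kb from it in the same orientation on chromosome 21 (COL6A1, chr21:45981770-46005050; COL6A2, chr21:46098112-46132848), had 21.9, 21.4 and 19.2 CPM in si-NT and 20.9, 21.1 and 22.3 CPM in si-FOSL1 samples of A375 (0.04 ± 0.07, adjusted p = 0.68). In 1205Lu it had 65.8, 64.8 and 71.7 CPM against 74.4, 76.5 and 70.8 CPM, which overlapped, and the log2 fold change of 0.13 ± 0.05 was called (adjusted p = 0.024), but not without si-NT replicate 1 or 2 or si-FOSL1 replicate 1 or 2, with adjusted p-values of 0.052 to 0.098. The ratio of COL6A1 to COL6A2 per kb of exon rose from 2.77 ± 0.132 to 4.64 ± 0.364 in A375 and from 1.59 ± 0.0469 to 2.34 ± 0.0899 in 1205Lu cells, without overlap in either line. COL6A3 had 9.87, 11.7 and 10.9 CPM in si-NT and 10.7, 10.2 and 10.2 CPM in si-FOSL1 samples of A375 and was not called there (-0.06 ± 0.10) or in 1205Lu cells (-0.59 ± 0.25, adjusted p = 0.072), where it passed without si-FOSL1 replicate 1 (-0.83, adjusted p = 0.027). COL6A5 (0.45 ± 0.44) and COL6A6 (-0.54 ± 0.54) were tested in 1205Lu cells only and not called.

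**Figure D3:**
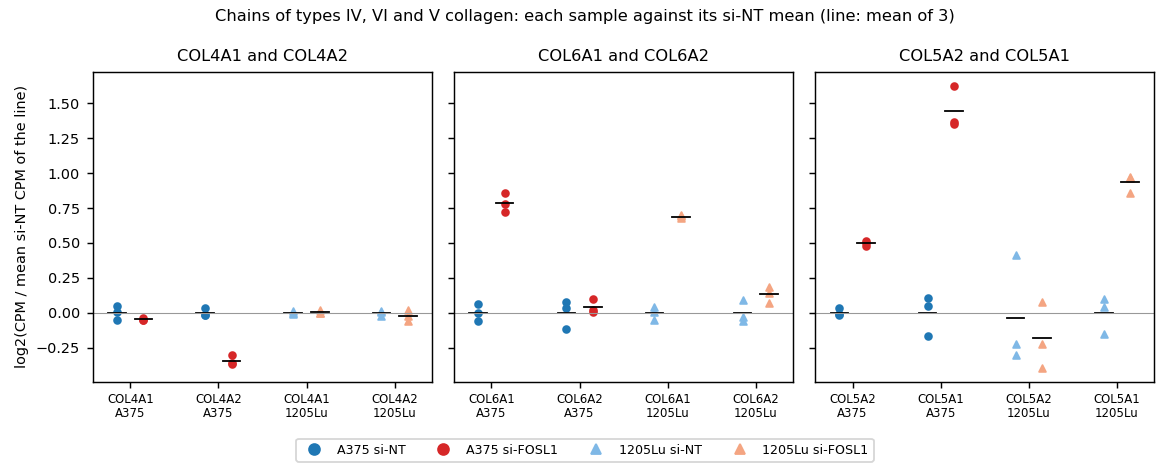
Log2 ratio of each sample's CPM to the si-NT mean of its line (vertical axis) for chains of type IV, VI and V collagen, with a point per sample, 3 per group, and a line at their mean. COL6A1 rises in both lines while COL6A2 lies closer to 0, COL4A2 falls in A375 cells while COL4A1 lies near 0, and COL5A1 rises in both lines.

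Of the FACIT collagens, COL12A1 moved in opposite directions in the lines. It encodes a large protein that bridges fibrils in tendon, skin and reactive stroma. COL12A1 measured 179, 195 and 184 CPM in si-NT and 136, 131 and 130.04 CPM in si-FOSL1 samples of A375 (log2 fold change -0.49 ± 0.03, adjusted p = 4.2e-12), and 39.9, 38.6 and 33.2 CPM against 50.4, 51.2 and 50.0 CPM in 1205Lu (0.44 ± 0.06, adjusted p = 3.9e-06). The groups were apart in both lines, and the difference between the effects is tested further on. COL16A1, found at basement membranes and in cartilage, was higher in both lines, from 14.97, 16.1 and 15.03 CPM to 30.6, 26.4 and 25.3 CPM in 1205Lu (0.84 ± 0.08, adjusted p = 3.2e-08) and from 3.12, 4.18 and 3.16 CPM to 4.41, 4.94 and 5.33 CPM in A375 (0.48 ± 0.17, adjusted p = 0.021). The A375 call was lost without si-NT replicate 1 or 3 or si-FOSL1 replicate 3, at adjusted p-values of 0.079 to 0.084.

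COL9A3, a chain of the type IX collagen that coats cartilage fibrils, was the most abundant collagen per kb in 1205Lu cells. It had 222, 228 and 235 CPM in si-NT and 213, 212 and 215 CPM in si-FOSL1 samples there, a shift of -0.10 ± 0.02 on the log2 scale (adjusted p = 0.0037) that was not called when all 12 samples were fitted together (adjusted p = 0.085). In A375 cells it rose from 8.95, 11.1 and 8.98 CPM to 12.9, 14.0 and 13.9 CPM (0.49 ± 0.10, adjusted p = 0.00038). COL9A3 shares 155 exon bases with TCFL5 on the other strand, which averaged 28.1 CPM in si-NT and 25.9 CPM in si-FOSL1 samples of A375. COL9A2, another type IX chain, rose in 1205Lu cells from 2.48, 2.56 and 2.48 CPM to 4.82, 5.28 and 5.32 CPM (1.03 ± 0.17, adjusted p = 4.3e-05), and COL9A1 was at 1.07 ± 0.333 CPM in 1205Lu si-NT samples and not called (-0.47 ± 0.38). COL9A2 was not called in A375 cells (0.67 ± 0.58), where COL9A1 was below the filter. Of the type IX chains in 1205Lu cells, COL9A2 was thus called higher and COL9A3 lower.

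The remaining FACIT genes were low or present in 1 line. COL19A1 rose in A375 cells from 1.01, 0.93 and 0.80 CPM to 2.58, 2.19 and 2.38 CPM (log2 fold change 1.39 ± 0.27, adjusted p = 0.00015). It shares 85 exon bases with LMBRD1 on the other strand, which had 8.10 CPM in si-NT and 11.5 CPM in si-FOSL1 samples on average. In 1205Lu cells COL19A1 was not called (0.19 ± 0.18). COL22A1, a collagen of tissue junctions, fell in 1205Lu cells from 63.9, 63.4 and 66.9 CPM to 37.8, 38.6 and 39.6 CPM (-0.74 ± 0.05, adjusted p = 5.6e-11). COL20A1 fell there from 2.58, 2.25 and 2.81 CPM to 1.16, 1.57 and 1.45 CPM (-0.87 ± 0.24, adjusted p = 0.0067).

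The short chain collagen COL8A1, a network former of vessel walls and the eye, was lower by over 2-fold in both lines. It went from 79.0, 82.4 and 88.5 CPM to 40.8, 39.7 and 40.9 CPM in A375 (2.06-fold lower, log2 fold change -1.04 ± 0.05, adjusted p = 4.5e-15) and from 3.77, 2.65 and 2.69 CPM to 2.02, 1.18 and 0.89 CPM in 1205Lu (2.24-fold lower, -1.17 ± 0.28, adjusted p = 0.0019). No sample overlapped between groups. In 1205Lu cells it fell short of the fold limit without si-NT replicate 1 (-0.97) or si-FOSL1 replicate 3 (-0.93), and in A375 cells without si-NT replicate 3 (-0.998), with the adjusted p still under 0.05 each time.

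COL13A1, a transmembrane collagen of cell contacts and nerve-muscle junctions, was also lower in both lines. It measured 25.8, 29.1 and 26.1 CPM in si-NT and 17.1, 16.7 and 17.1 CPM in si-FOSL1 samples of A375 (log2 fold change -0.67 ± 0.07, adjusted p = 2.9e-08), and 9.65, 10.2 and 9.74 CPM against 5.15, 6.32 and 6.96 CPM in 1205Lu (-0.68 ± 0.13, adjusted p = 0.00027). The groups did not overlap in either line. COL17A1, the transmembrane collagen of hemidesmosomes, had 0.89 to 1.61 CPM in si-NT and 0.42 to 0.78 CPM in si-FOSL1 samples of A375 and missed the threshold (-0.92 ± 0.39, adjusted p = 0.051), which it passed without si-NT replicate 3 (adjusted p = 0.043). COL7A1, which anchors the basement membrane of skin, was not called in A375 (-0.22 ± 0.17) or 1205Lu cells (-0.10 ± 0.18), and in A375 it passed without si-NT replicate 1 (-0.40, adjusted p = 0.043).

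Of the 22 collagen genes tested in both lines, 3 were called higher in both (COL5A1, COL6A1 and COL16A1) and 3 lower in both (COL27A1, COL13A1 and COL8A1). COL9A3 and COL12A1 were called in opposite directions. Another 5 were called in A375 only (COL1A1, COL5A2, COL19A1, COL4A2 and COL4A4), 4 in 1205Lu only (COL11A2, COL18A1, COL6A2 and COL9A2), and 5 in neither (COL1A2, COL24A1, COL4A1, COL6A3 and COL7A1). The matching shares of all protein-coding genes were not counted, so these numbers do not show whether collagen genes stand apart from other genes. A call in 1 line does not show a difference, so the effects were compared directly. The 10 genes tested in neither line were COL2A1, COL11A1, COL28A1, COL14A1, COL21A1, COL23A1, COL25A1, COL8A2, COL10A1 and COL26A1, and no gene below the filter had over 22 counts in a sample of A375 or over 20 counts in a sample of 1205Lu cells.

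The interaction of line and treatment was tested in 35 collagen genes over all 12 samples, and the silencing effect differed between the lines for 10 of them, beside 38.7% of all protein-coding genes tested. Values are the 1205Lu effect minus the A375 effect on the log2 scale. Among genes measured well in both lines, COL12A1 (0.94 ± 0.07, adjusted p = 2.8e-11), COL27A1 (0.49 ± 0.05, adjusted p = 6.8e-08) and COL4A2 (0.34 ± 0.04, adjusted p = 4.9e-08) were positive, and COL9A3 (-0.57 ± 0.08, adjusted p = 3.5e-06) and COL5A1 (-0.50 ± 0.15, adjusted p = 0.0097) were negative. COL12A1 and COL9A3 moved in opposite directions in the lines, COL27A1 fell more in A375 and COL5A1 rose more in A375. COL3A1 (-3.86 ± 0.63), COL5A2 (-0.63 ± 0.16), COL15A1 (-1.88 ± 0.47), COL19A1 (-1.19 ± 0.30) and COL20A1 (-1.68 ± 0.52) were also negative, each with a level under 5 CPM in all samples of at least 1 line. For COL6A1 (adjusted p = 0.23), COL16A1 (0.10), COL13A1 (1.0) and COL8A1 (0.70), which moved the same way in both lines, no difference between the effects was called.

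Without silencing, the lines carried different collagen mRNAs. Of 35 genes tested between the si-NT groups, 15 were higher in 1205Lu and 12 were higher in A375 cells past the same limits on p and fold, beside 19.5% and 19.4% of all protein-coding genes. The filter over all 12 samples keeps a gene that is present in 1 line only. The 15 include the 7 genes that passed the filter of 1205Lu but not of A375, and the 12 include the 5 that passed in A375 only. For these genes the filter itself favours a difference, so the counts are not independent of it. A375 cells were high in COL5A2, with 204 ± 3.71 CPM against 3.42 ± 0.982 CPM in 1205Lu (59.4-fold), in COL8A1 with 83.3 ± 4.78 CPM against 3.04 ± 0.634 CPM (26.3-fold), and in COL4A5 with 25.8 ± 1.498 CPM against 0.191 ± 0.113 CPM (135-fold). 1205Lu cells were high in COL9A3, with 228 ± 6.12 CPM against 9.69 ± 1.26 CPM in A375 (24.0-fold), in COL18A1 with 66.7 ± 1.14 CPM against 2.75 ± 0.739 CPM (25.1-fold), and in COL5A3 with 32.6 ± 1.13 CPM against 0.243 ± 0.0381 CPM. COL22A1 had 5 counts over the 3 A375 si-NT samples and 64.8 ± 1.90 CPM in 1205Lu si-NT samples.

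Within a collagen type, the lines differed in which chain mRNAs they held. The COL4A3, COL4A4, COL4A5 and COL4A6 genes were all higher in A375 cells, and of type V, COL5A2 was higher in A375 and COL5A3 in 1205Lu cells. For COL5A1 no difference was called (8.81 ± 0.854 and 7.85 ± 0.690 CPM, adjusted p = 0.26), and COL4A1 and COL4A2 were higher in 1205Lu by 0.73 and 0.38 on the log2 scale. The 15 calls include COL6A5, COL6A6 and COL14A1, each under 1 CPM on average. COL6A5 lost its call without A375 si-NT replicate 1 or 2, any 1205Lu si-NT replicate, or 1205Lu si-FOSL1 replicate 2 or 3 (adjusted p of 0.053 to 0.13). COL6A6 lost it without A375 si-NT replicate 1 or 3 or 1205Lu si-NT replicate 1 (0.058 to 0.13), and COL14A1 without A375 si-NT replicate 2 or 3 or 1205Lu si-NT replicate 1 (0.059 to 0.081).

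Per kb of annotated exon, the order of levels in A375 si-NT samples was COL5A2 (27.9 ± 0.506 CPM per kb), COL4A2 (15.8 ± 0.294), COL6A1 (10.8 ± 0.464), COL4A1 (10.5 ± 0.363), COL12A1 (9.86 ± 0.430), COL8A1 (8.86 ± 0.509), COL27A1 (6.61 ± 0.0755) and COL6A2 (3.91 ± 0.273). COL6A1 and COL4A1 lay within their spread of each other, as did COL4A1 and COL12A1. In 1205Lu si-NT samples it was COL9A3 (47.2 ± 1.27), COL6A1 (20.1 ± 0.655), COL4A2 (20.01 ± 0.267), COL4A1 (16.9 ± 0.129), COL6A2 (12.6 ± 0.696), COL22A1 (8.23 ± 0.241), COL18A1 (7.88 ± 0.135) and COL27A1 (7.42 ± 0.200). COL6A1 and COL4A2 lay within their spread of each other there, as did COL22A1 and COL18A1.

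**Figure D4:**
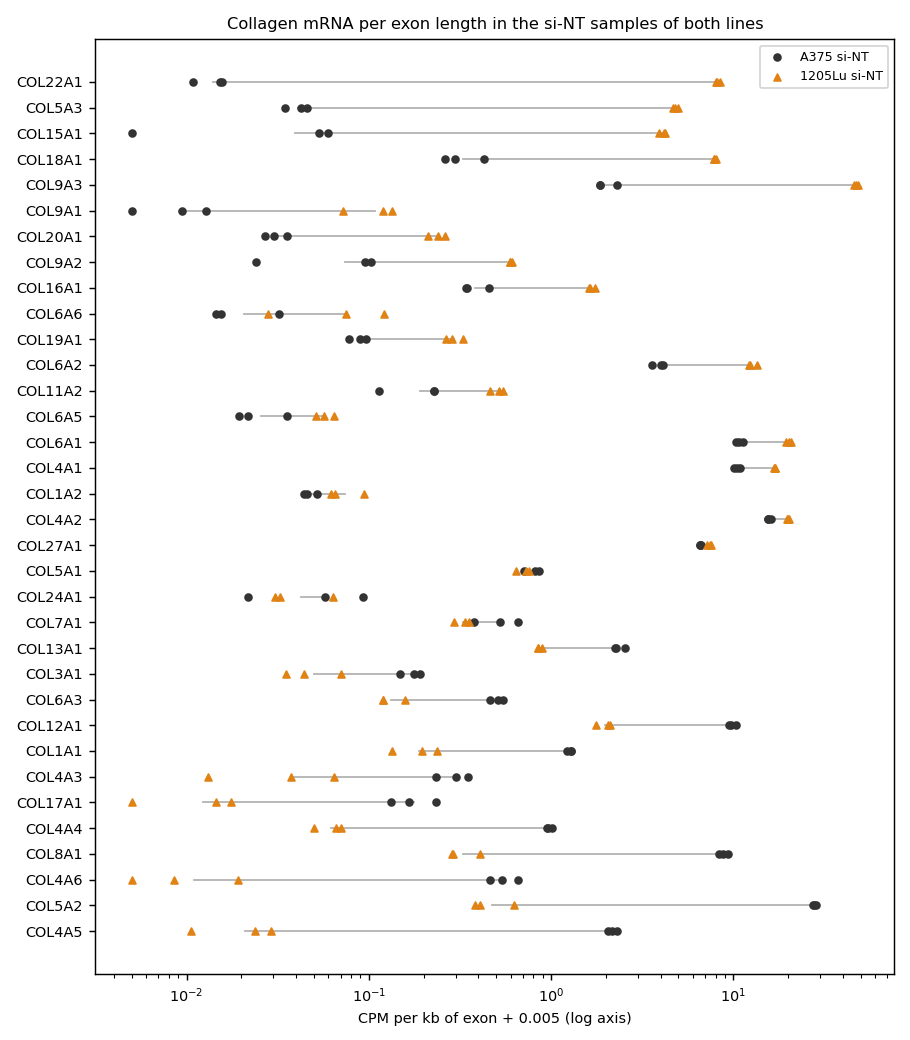
CPM per kb of exon (plus 0.005, log axis) in the 3 si-NT samples of A375 (circles) and of 1205Lu (triangles) for the 34 collagen genes tested in at least 1 line, ordered by the ratio of the lines, with a line joining the means. COL4A5 and COL5A2 at the bottom are higher in A375, COL22A1 and COL5A3 at the top are higher in 1205Lu, and COL5A1 lies together in both.

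The genes that make collagen mature were followed as a list of 44, covering folding and hydroxylation, export, propeptide removal, crosslinking and receptors. The list was drawn up with earlier results of these data known, so its shares are descriptive. In A375 cells 26 of the 40 tested were higher upon silencing and 3 were lower, where 29.9% and 27.8% of all protein-coding genes were, with a median log2 fold change of 0.21 against 0.01 for all. In 1205Lu cells 13 of 41 were higher and 13 lower, where 24.0% and 23.0% of all protein-coding genes were, with a median of 0.09 against -0.00093 for all. In A375 the genes for folding and hydroxylation were higher in 12 of 17 and lower in 2, and in 1205Lu they were higher in 4 and lower in 9 of 17.

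SERPINH1, the collagen chaperone HSP47, had 98.4 ± 0.475 CPM in si-NT and 165.5 ± 6.15 CPM in si-FOSL1 samples of A375 (log2 fold change 0.75 ± 0.03, adjusted p = 1.3e-15) and was not called in 1205Lu (0.05 ± 0.02, adjusted p = 0.13). P4HA2, a prolyl hydroxylase subunit, rose by 0.84 ± 0.08 in A375 (adjusted p = 3.2e-09) and was not called in 1205Lu (-0.09 ± 0.04). PLOD2, a lysyl hydroxylase, rose by 0.15 ± 0.02 in A375 and fell by 0.80 on the log2 scale in 1205Lu, and the difference between the effects was -0.94 ± 0.05 (adjusted p = 2.2e-13). The interaction was likewise called for SERPINH1 (-0.69 ± 0.04) and P4HA2 (-0.92 ± 0.09).

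Past the fold limit were ITGA1, ADAMTS3 and LOXL1 in A375 and P3H2 in 1205Lu cells. ITGA1, a subunit of a collagen receptor, went from 139 ± 4.04 CPM to 386 ± 2.93 CPM in A375 (log2 fold change 1.47 ± 0.03, adjusted p = 5.5e-23), and its partner ITGB1 was lower in both lines (-0.40 ± 0.02 and -0.42 ± 0.02). ADAMTS3, which trims procollagen ends, went from 4.92 ± 1.36 CPM to 11.7 ± 0.594 CPM (1.26 ± 0.14, adjusted p = 7.9e-08), and LOXL1, a crosslinking enzyme, from 0.652 ± 0.214 CPM to 1.65 ± 0.362 CPM (1.33 ± 0.36, adjusted p = 0.0032). P3H2, a prolyl hydroxylase that favours type IV collagen, rose in 1205Lu from 3.08 ± 0.524 CPM to 6.31 ± 0.932 CPM (1.04 ± 0.17, adjusted p = 6.0e-05).

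Among 54563 consensus peaks, 40 lay within 3 kb of an annotated start of a collagen gene and 106 elsewhere in a collagen gene. Of the 44 genes, 36 had at least 1 peak, beside 61.5% of all protein-coding genes, and 24 had one near a start, beside 48.8%. Gene length was not taken into account. Starts of all annotated transcripts were used, and some lie inside a gene, so a promoter peak need not lie at the outer start. A peak counted as enriched at 10 or more reads in each of the 3 FRA1 samples, all of them 4 or more times the IgG reads with 1 added, a rule without a test since each line had 1 IgG sample. By it, 18 of 44 genes had an enriched promoter peak in A375 cells, beside 27.6% of all protein-coding genes, and 3 of 44 in 1205Lu cells, beside 3.72%. Among genes tested for silencing it was 12 of 27 beside 35.0% in A375, and 3 of 29 beside 4.87% in 1205Lu cells.

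The number of reads in peaks bears on these counts. The A375 FRA1 samples held 3354095 to 5316527 reads in peaks against 383994 for IgG, and the 1205Lu FRA1 samples held 583750 to 897407 against 314569. With counts scaled to the same total in peaks, no collagen gene in A375 and only COL6A3 in 1205Lu cells had an enriched promoter peak. This scaling makes the FRA1 and IgG totals over all peaks equal, which takes out any enrichment shared by most peaks. Few peaks can pass under it, so it does not show whether FRA1 was enriched at these genes. With a limit of 8 times IgG, 7 genes remained in A375 (COL4A3, COL15A1, COL12A1, COL16A1, COL13A1, COL8A1 and COL7A1). The shares of all protein-coding genes under these other rules were not counted. The difference between the lines in these counts cannot be told apart from the difference in reads in peaks. Total reads per library were not counted here, so sequencing depth and the share of reads in peaks cannot be separated. The 1205Lu FRA1 replicates 2 and 3 were close to counting noise, with a chi-square per degree of freedom of 1.06 where 1.62 and 1.90 separated replicate 1 from them, and the 3 genes stayed the same without either of the 2. Pairs of A375 FRA1 replicates were also near counting noise, at 1.09 to 1.25.

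The promoter peaks with the most reads were at COL7A1, COL16A1, COL13A1 and COL8A1 in A375 cells. At COL7A1 the peak 0.583 kb upstream of the nearest start had 381, 542 and 465 reads against 15 with IgG. At COL16A1 the peak 2.838 kb downstream of a start had 247, 379 and 291 reads against 6, and 47, 66 and 67 against 7 in 1205Lu cells, the only promoter peak of a collagen gene enriched in both lines. The COL8A1 peak 0.793 kb upstream had 186, 247 and 194 reads against 14 in A375 and 14, 16 and 11 against 6 in 1205Lu cells, where it was not enriched.

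In 1205Lu cells the enriched promoter peaks were at COL6A3, COL16A1 and COL22A1. At COL22A1 the enriched promoter peaks lay inside the gene (chr8:138588235-138914041, minus strand), each upstream of an internal annotated start. The peak at chr8:138830683-138832645 had 162, 355 and 307 reads against 27 with IgG, and the peak at chr8:138621993-138622369 had 37, 61 and 62 against 6. In A375 cells, which had almost no COL22A1 mRNA, these peaks had 2 to 9 FRA1 reads. The COL6A3 peak had 46, 116 and 100 reads against 3 in 1205Lu and 4 or 5 FRA1 reads in A375 cells. The COL6A3 peak (chr2:237389936-237390705) also lay inside its gene, near an internal start. So did the enriched A375 promoter peaks of COL4A3 (chr2:227309616-227311010) and COL13A1 (chr10:69818810-69820468 and chr10:69874438-69874963), among others. With promoter taken as near any annotated start, enrichment came with calls in both directions. Of the 12 A375 genes tested with an enriched promoter peak, 2 were higher (COL5A2 and COL16A1), 4 were lower (COL4A3, COL12A1, COL13A1 and COL8A1) and 6 were not called, and of the 15 without, 7 were higher, 4 were lower and 4 were not called. How calls divide by promoter enrichment outside the collagen family was not counted, so this split is not shown to be particular to collagens. Groups of 12 and 15 genes are also too small to compare their shares. COL3A1 and COL6A1, which rose, had no enriched promoter peak in A375 cells.

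**Figure D5:**
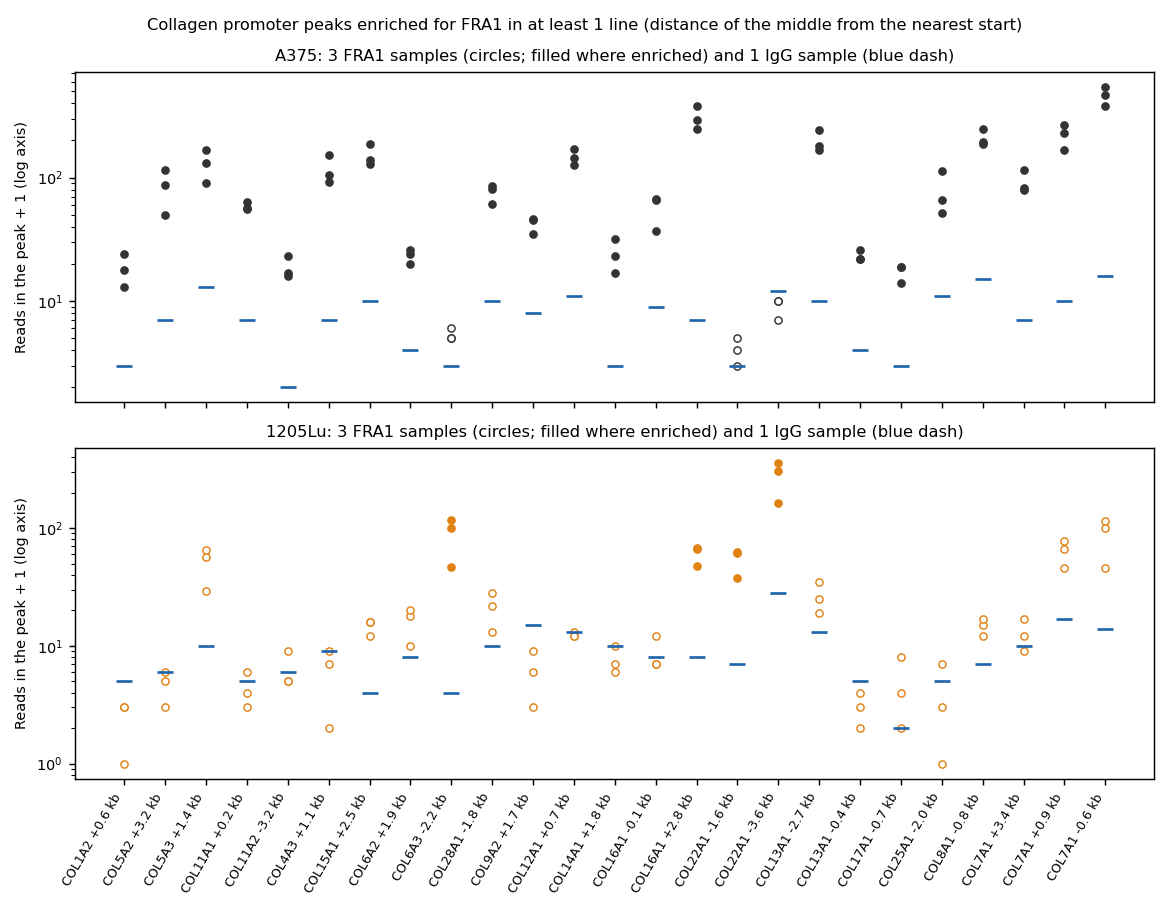
Reads in each collagen promoter peak enriched in at least 1 line (plus 1, log axis) for A375 (top) and 1205Lu (bottom), with a circle for each of the 3 FRA1 samples, filled where the peak was enriched in that line, and a dash for the IgG sample; labels give the gene and the distance of the peak's middle from the nearest start. The COL7A1, COL16A1, COL13A1 and COL8A1 peaks stand highest in A375, and only the COL6A3, COL16A1 and COL22A1 peaks are filled in 1205Lu.

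Inside the genes, 64 of 106 gene body peaks (60.4%) were enriched in A375 and 10 of 106 (9.43%) in 1205Lu cells. Of the promoter peaks it was 22 of 40 (55.0%) and 4 of 40 (10.0%). These shares lay near those of all consensus peaks, which were 57.4% in A375 and 7.09% in 1205Lu cells. COL21A1, whose mRNA was below the filter in both lines, carried 10 enriched gene body peaks in A375 cells, and COL4A2 carried 9. The COL4A2 peak with the most reads, in an intron 40.3 kb from the nearest start, had 1220, 1816 and 1449 reads against 31 with IgG in A375 and 42, 67 and 41 against 8 in 1205Lu cells. COL4A2 was lower upon silencing in A375 and not called in 1205Lu cells, and 4 of its peaks were enriched in 1205Lu cells.

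The canonical AP-1 site was searched as TGACTCA on either strand (TGAGTCA is the same site read on the other strand) in the 300 bases around the middle of each peak. It was in 19855 of all 54563 peaks (36.4%), in 15 of 40 collagen promoter peaks and in 45 of 106 collagen gene body peaks (42.5%). Of the peaks enriched in A375 cells, 43.6% held it, as did 10 of 22 collagen promoter and 26 of 64 collagen gene body peaks. Of the peaks enriched in 1205Lu cells, 42.0% held it, as did 2 of 4 collagen promoter and 2 of 10 collagen gene body peaks. None of the 44 collagen promoters in the RefSeq table (GRCh38.p14, 250 bases before to 50 after the start) held it, and 4.95% of the 35116 promoters there did. These matches describe letters in a window and not binding. The lines that follow give 100 bases of GRCh38 around the site in enriched peaks of genes that changed, on the plus strand of the genome, with the site in capitals. COL27A1 was lower in both lines, COL16A1 was higher in both, COL5A2 was higher in A375, and COL12A1 went in opposite directions. The COL16A1, COL12A1 and COL27A1 peaks were enriched in both lines and the COL5A2 peak in A375 only.
COL16A1, intron, chr1:31701181-31701280: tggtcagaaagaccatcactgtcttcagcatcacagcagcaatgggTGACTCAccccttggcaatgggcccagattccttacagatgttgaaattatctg
COL5A2, intron, chr2:189221958-189222057: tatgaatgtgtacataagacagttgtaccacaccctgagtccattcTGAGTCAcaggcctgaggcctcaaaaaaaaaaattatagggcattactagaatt
COL12A1, intron, chr6:75196221-75196320: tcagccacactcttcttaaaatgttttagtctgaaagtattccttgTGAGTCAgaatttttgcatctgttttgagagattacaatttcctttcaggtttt
COL27A1, intron, chr9:114177852-114177951: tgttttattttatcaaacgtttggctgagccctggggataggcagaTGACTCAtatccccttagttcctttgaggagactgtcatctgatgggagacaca

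Measured from the nearest annotated start, the site lies 2787, 3305, 6522 and 9293 bases downstream for COL16A1, COL5A2, COL12A1 and COL27A1. The COL12A1 peak had 243, 376 and 276 FRA1 reads against 7 with IgG in A375 and 28, 50 and 59 against 4 in 1205Lu cells. The COL27A1 peak with the printed site had 71, 93 and 79 against 7, and 19, 23 and 20 against 3. Another COL27A1 gene body peak (chr9:114223860-114224625), also enriched in both lines, had more reads and no such site in its window. It had 371, 559 and 467 reads against 9 in A375 and 91, 193 and 133 against 2 in 1205Lu cells. The COL12A1 and COL27A1 peaks with printed sites were enriched in both lines, where the COL12A1 mRNA moved in opposite directions and the COL27A1 mRNA moved in the same direction. The COL5A2 peak with the printed site had 49, 115 and 86 reads against 6 in A375 and 2, 5 and 4 against 5 in 1205Lu cells, where COL5A2 mRNA was low.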

How the data were processed

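RNA-seq measured 12 samples and Cut&Run 8, of A375 and 1205Lu cells. For RNA-seq, the authors found adapters with BBMerge, trimmed them with cutadapt 1.8.1, aligned reads with STAR 2.7.7a and used RSEM 1.3.0 to give expected counts per gene on Gencode v30 and GRCh38. The deposited expected counts were whole and not normalized. In the Cut&Run samples the authors aligned reads by Bowtie2 2.4.1, called peaks with MACS2 2.1.1.20160309 and joined them into consensus peaks, and the deposited count is the raw number of reads per peak and sample. Versions are from the submitters' processing notes, and whether peaks were called per sample is not given in the sources used here.

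Each line was fitted over all its genes with edgeR 4.0.16 in R 4.3.3 (filterByExpr, TMM, glmQLFit and glmQLFTest, Benjamini-Hochberg adjustment), and the interaction and the si-NT groups were fitted over all 12 samples. Standard errors are the absolute log2 fold change divided by the square root of the F statistic. Background shares count protein-coding genes. Exon lengths (union of annotated exons), starts and introns were taken from GENCODE v44 (GRCh38), and levels per kb depend on that annotation. A peak was a promoter peak where its edge lay within 3 kb of any annotated start, including starts inside a gene, and peak positions are those in the peak names. The fits were tested on simulated data. Every member that passed the filter is named, per-sample CPM is given in the line where a gene was called or had a mean of at least 10 CPM, and genes of the assembly list are named where past the fold limit or chosen after their values were seen (SERPINH1, P4HA2, PLOD2, ITGB1). The collagen members were set by name alone, but the choice of collagen genes as the topic and the lists were made with earlier results of these data known. Same-numbered samples did not deviate together (correlations of -0.0082 to 0.047), so numbers did not pair them. Replicates of a group differed beyond counting noise in RNA-seq. Alternatives were DESeq2 1.42.0, RLE and upper-quartile scaling, other filters, a replicate block, leaving out each replicate, other sets of samples and other peak rules.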

Additional observations from a re-analysis of the deposited data

Results flagged for a closer look

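The effect of FOSL1 silencing differed between A375 and 1205Lu cells by the interaction test for 10 collagen genes, and these are listed for a closer look. Each value is the 1205Lu effect minus the A375 effect on the log2 scale. The values were 0.94 for COL12A1, 0.49 for COL27A1 and 0.34 for COL4A2, so the 1205Lu effect was the more positive. They were -0.50 for COL5A1, -0.57 for COL9A3, -0.63 for COL5A2, -1.19 for COL19A1, -1.68 for COL20A1, -1.88 for COL15A1 and -3.86 for COL3A1, so the A375 effect was the more positive. COL12A1 and COL9A3 were called in opposite directions in the lines. COL3A1, COL15A1 and COL20A1 were tested for silencing in 1 line only, because the other line was below the filter on low counts, and the low level there sets how far their differences can be read.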

How the results depend on the processing

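The counts of collagen and assembly genes called in RNA-seq stayed within 1.5 times their reported value under DESeq2, both other scalings, both other filters, the replicate block and the other sets of samples. Leaving out each sample in turn gave 8 to 10 higher, 7 to 9 lower and 5 or 6 past the fold limit in A375, 7 or 8 higher, 7 or 8 lower and 1 or 2 past the fold limit in 1205Lu, 27 to 29 and 23 to 25 assembly genes called, 10 or 11 interaction calls and 24 to 28 differences between the lines. With the replicate block, 9 and 8 collagen genes were called higher and lower in A375, 9 and 7 in 1205Lu, 11 in the interaction and 26 between the lines. The numbers share only a label, and the block is given for that reason alone.

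Promoter enrichment depended on its rule. The shares of all protein-coding genes under the other rules were not counted, so the numbers below do not set collagen genes apart from other genes. In A375 cells the 18 genes became 7 at 8 times IgG, 0 with counts scaled to the same total in peaks and 10 within 1 kb, and 18 to 21 without each replicate. In 1205Lu cells the 3 genes became 6 at 2 times IgG, 1 at 8 times IgG, 1 with scaled counts and 0 within 1 kb, and 3 to 5 without each replicate. The scaled counts take out enrichment shared by most peaks, so the low numbers with them are built into that rule.

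The sign turned only for log2 fold changes that were not called. For COL24A1 in A375 cells the value was 0.0126 with upper-quartile scaling, 0.0206 without a filter and 0.10 with the replicate block, and -0.44 to 0.60 without each replicate. For COL4A1 in 1205Lu cells it was -0.0070 with a mean of at least 1 CPM. Without each replicate in turn, it ran from -0.0176 to 0.0777 for COL6A2 and from -0.0244 to 0.42 for COL18A1 in A375, from -0.0353 to 0.0059 for COL4A2, from -0.29 to 0.10 for COL5A2 and from -0.93 to 0.0853 for COL6A6 in 1205Lu, and from -0.93 to 0.16 for COL24A1 between the lines. Other calls that were lost were COL4A6 in A375 with DESeq2 (adjusted p = 0.056), without a filter (0.082) or with all 12 samples (0.21), COL11A2 in 1205Lu with DESeq2 (0.068), without a filter (0.10) or with all 12 samples (0.084), and the COL20A1 interaction without a filter (0.060). Between the lines, the calls of COL6A5 and COL14A1 were lost without a filter (0.16 and 0.13), and that of COL6A5 with the replicate block (0.054). With 3 samples a group, collagen genes of few counts were not tested, and the causes of these changes were not tested.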
